A study of Mus musculus with 63 samples.

Results

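Blocking the kinase of the epidermal growth factor receptor (EGFR) for 2 h was set against growing up without the receptor, both in mouse keratinocytes made to carry the v-rasHa oncogene. Members were chosen by title: 5 arrays of wild-type ras cells with erlotinib and 5 arrays of knockout ras cells without inhibitor, 10 of the 63 arrays of the series. Keratinocytes came from the skin of newborn CD-1 mice, and those of the knockout group from animals in which *Egfr* had been knocked out throughout the body. Both groups were infected with virus from Psi-2 producer cells and kept in culture for 4 days after transduction with v-rasHa. The wild-type group then received 1 µM erlotinib (Tarceva), an inhibitor of the EGFR tyrosine kinase, for 2 h. The knockout group received no inhibitor, so genotype, drug and the length of time without EGFR signalling all differ between the groups. They are called WT ras + erlotinib and KO ras here. WT ras (5 samples, no inhibitor) and KO ras + erlotinib (4 samples, same dose and time) are given beside them for orientation. Every array carried 1 sample together with a universal mouse reference, a mixture of RNA from 11 cell lines, and every level below is the log2 ratio of sample over reference, with the base of the logarithm assumed from the spread of the values.

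EGFR is a receptor tyrosine kinase that keratinocytes switch on through ligands such as amphiregulin, TGF-alpha and HB-EGF. It signals through ras, RAF, MEK and ERK to immediate early transcription factors, and also through PI3-kinase and AKT, and in the epidermis it sustains proliferation and restrains differentiation. Keratinocytes carrying oncogenic ras make more of these ligands and so activate their own receptor, which is why the receptor matters even downstream of a mutant ras. A kinase inhibitor acts within minutes on a cell that developed with the receptor, whereas a knockout cell has adapted to its absence. The comparison asks how far the profile of acute inhibition matches that of genetic loss.

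The arrays do not all share a run, meaning a stretch of consecutive experiment numbers in the labels, whose meaning is not given. KO ras replicates 1 to 3 form run 3 and share it with no erlotinib array. KO ras replicate 5 lies in run 5 with WT ras + erlotinib replicates 1 to 3, and KO ras replicate 4 in run 6 with WT ras + erlotinib replicates 4 and 5. Replicate 4 of each group was labelled with the dyes reversed. KO ras replicates 1 to 3 stood apart: they correlated at a median of 0.807 with each other and 0.576 with KO ras replicates 4 and 5. KO ras replicates 4 and 5 correlated at a median of 0.728 with the erlotinib arrays, above that 0.576, and at 0.768 with each other. The erlotinib arrays correlated at a median of 0.695 among themselves. Calls are therefore given from all 10 samples and again with run as a fixed block, a fit that rests on KO ras replicates 4 and 5. Both arrays had wider values than the WT ras + erlotinib arrays of their runs. The SD was 1.53 for KO ras replicate 5, against 0.977 to 1.36 in run 5. It was 1.75 for KO ras replicate 4, against 1.42 and 1.57 in run 6. The block does not remove such differences in spread, and their part in its results was not tested. A gene that did not pass from all samples and is given no value for the block did not pass there either. WT ras lies in runs 1 and 2 and shares none with either group, so its distance from them and the run cannot be told apart. The arrays held 26207 to 28047 values, with SDs from 0.977 to 1.75. All 14 keratinocyte markers tested had mean levels above the reference in both groups. The *Egfr* probes do not check the genotype: the difference was 0.26 ± 0.40 (SE; limma adjusted p = 0.765) at 1 probe and 0.46 ± 0.49 (adjusted p = 0.640) at the other, and their place relative to the deletion is not known here.

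Of 27947 probes tested, 1364 (4.88%) passed an adjusted p of 0.05 in limma, 467 (1.67%) higher and 897 (3.21%) lower in KO ras than in WT ras + erlotinib. With run as a fixed block 671 (2.4%) passed, 309 higher (1.11%) and 362 lower (1.3%), and 267 (0.955%) passed in both fits. Run as a random block left 375 (1.34%), and the 2 groups fitted alone left 244, or 254 with the replicate number as a block. Quantile normalization gave 894 higher and 964 lower, so the excess of lower probes depends on the scaling. Counted by 1 representative probe per gene, 767 of 14503 genes (5.29%) differed, 250 higher (1.72%) and 517 lower (3.56%), and 161 (1.11%) differed in both fits. KO ras replicates 1 to 3 weigh heavily here: without replicate 1, 2 or 3 the probe count was 615, 549 or 627, without KO ras replicate 5 it was 2219, and without WT ras + erlotinib replicate 1 or 3 it was 655 or 625.

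**Figure D1:**
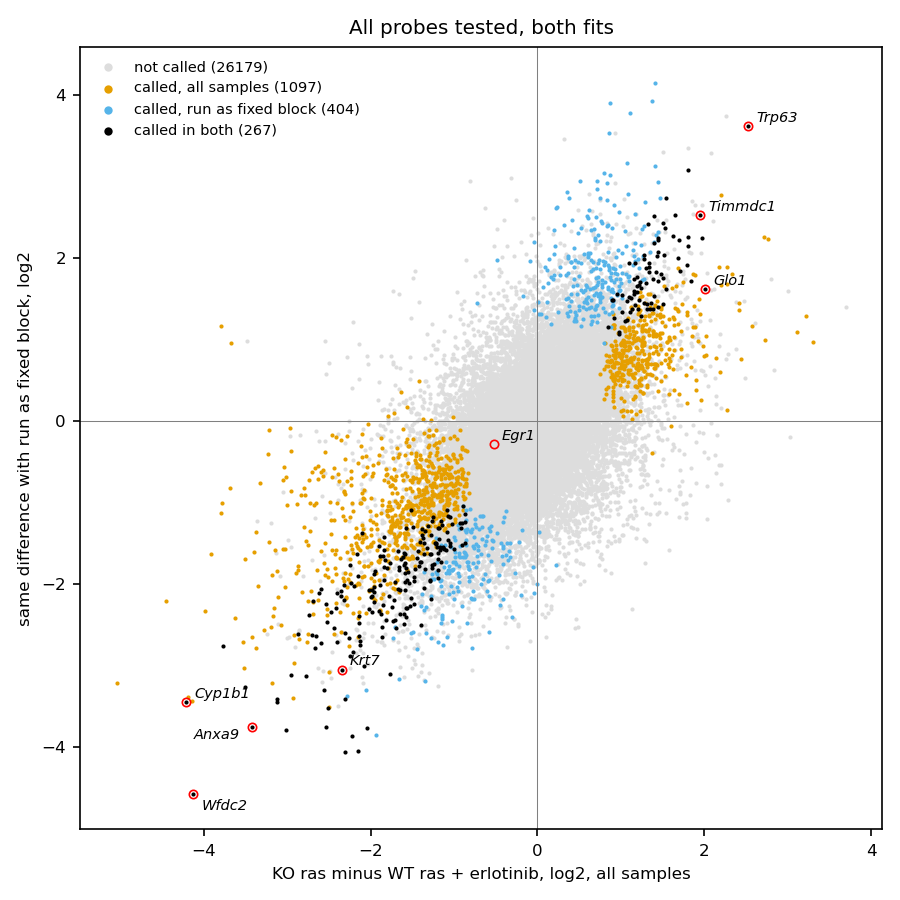
Difference of every tested probe (KO ras minus WT ras + erlotinib, log2) from all samples on the horizontal axis and with run as a fixed block on the vertical axis. Black points are the 267 probes that passed in both fits, orange and blue those that passed in 1 of them, and red rings mark 8 named genes: *Wfdc2*, *Anxa9* and *Cyp1b1* lie at the lower left, *Trp63*, *Timmdc1* and *Glo1* at the upper right, and *Egr1* near the origin.

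Among the 161 genes that differed in both fits, 123 were lower in KO ras. For 94 of those 123 the WT ras mean lay nearer to KO ras than to WT ras + erlotinib. The other 38 genes were higher in KO ras, and for 30 of them the WT ras mean lay nearer to WT ras + erlotinib. KO ras + erlotinib lay nearer to KO ras for 102 of the 123 lower genes and for 30 of the 38 higher ones. Over all 767 called genes the shares were lower: WT ras lay nearer to KO ras for 353 of 517 lower genes and nearer to WT ras + erlotinib for 143 of 250 higher ones, and KO ras + erlotinib lay nearer to KO ras for 331 of the 517 and 157 of the 250. These counts describe group means and carry no test.

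The immediate early genes *Egr1* and *Fos*, close readouts of ERK activity, stood below WT ras in every sample of both groups. Of the immediate early and the ERK feedback genes, 5% and 9.09% differed between drug and knockout, beside 5.29% of all genes. *Egr1*, an immediate early zinc-finger factor transcribed within minutes of ERK activation, read −1.23, −0.25, −0.94, −0.31 and −0.64 in KO ras replicates 1 to 5. In WT ras + erlotinib it read −0.05, 0.53, −0.08, −0.89 and −0.25. The groups overlapped, and the difference was −0.52 ± 0.29 (adjusted p = 0.306; 95% interval −1.11 to 0.06). With run as a fixed block it was −0.29 (adjusted p = 0.718). WT ras without inhibitor read 2.10 to 3.30 for *Egr1*, above every sample of both groups, and KO ras + erlotinib averaged 0.75 ± 0.72 (SD, n = 4).

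*Fos*, the immediate early partner of Jun in AP-1, read 0.12, 0.11, 0.36, −1.15 and 0.27 in KO ras. WT ras + erlotinib gave 0.97, 0.60, 0.96, −0.15 and 0.30 for the same gene. Those ranges overlapped, and all 10 values lay below the lowest WT ras value of 1.66. KO ras + erlotinib did not stand with them: it read 2.46, 2.75 and 2.75 for *Fos* in replicates 1 to 3, within the WT ras range, and −1.25 in replicate 4. The difference between the groups was −0.59 ± 0.61 (adjusted p = 0.628; interval −1.82 to 0.63). *Csf2*, the cytokine GM-CSF, averaged 2.60 ± 1.97 (SD, n = 5) in WT ras, with differences of −0.25 ± 0.55 (adjusted p = 0.841; interval −1.35 to 0.84) between KO ras and WT ras + erlotinib. *Il24*, an IL-10 family cytokine, averaged 5.12 ± 1.39 in WT ras and differed by 0.16 ± 0.80 (adjusted p = 0.941; interval −1.46 to 1.77) between the groups, or 1.53 (adjusted p = 0.459) with the block. In KO ras + erlotinib *Il24* read 4.23, 5.16, 5.48 and 1.94, the first 3 within the WT ras range. *Ptgs2*, which encodes the cyclooxygenase COX-2, averaged 5.86 ± 0.74 in WT ras and differed by −0.19 ± 0.77 (adjusted p = 0.920; interval −1.73 to 1.34), or 1.05 (adjusted p = 0.567) with the block. KO ras + erlotinib averaged 4.77 ± 1.13 for *Ptgs2* and 0.80 ± 1.02 for *Csf2*. The width of these intervals means that differences of more than 2-fold either way in *Il24* and *Ptgs2* could not be told from no difference with 5 samples a group. For *Csf2*, *Il24* and *Ptgs2* some samples of KO ras or WT ras + erlotinib lay within the WT ras range. *Ptgs2* read 5.13 in KO ras replicate 5 and 5.61 in WT ras + erlotinib replicate 4. *Il24* read 4.48 in KO ras replicate 5, and *Csf2* went down to 0.08 in WT ras replicate 3.

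**Figure D2:**
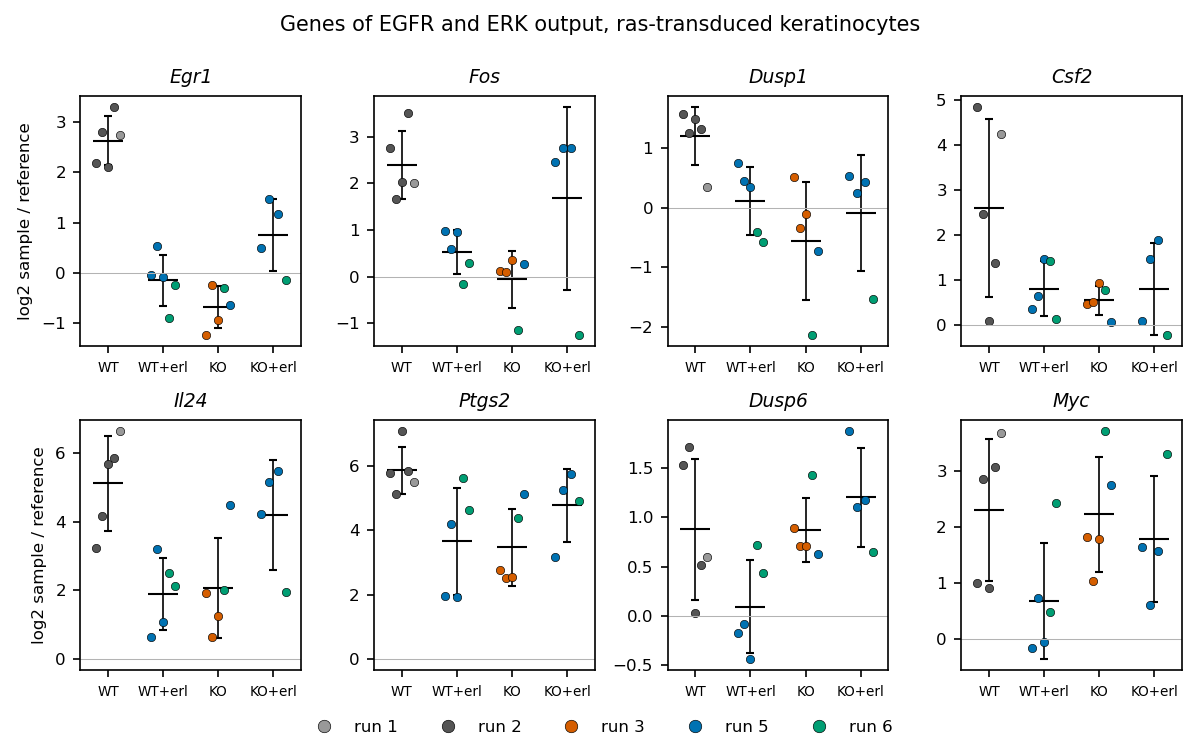
Level of 8 genes of EGFR and ERK output (log2 sample over reference) in WT ras, WT ras + erlotinib, KO ras and KO ras + erlotinib. Each point is 1 sample coloured by run, and the line and bar are the group mean and SD. For *Egr1* the 5 WT ras samples lie at 2.10 to 3.30 while every WT ras + erlotinib and KO ras sample lies below 0.54, and for *Dusp6* the KO ras samples lie at 0.63 to 1.43.

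Among the feedback genes of the pathway *Dusp4*, a nuclear phosphatase that inactivates ERK, was the only one that passed from all samples, and it was lower in KO ras (−1.47 ± 0.41, adjusted p = 0.0281; −1.81, adjusted p = 0.0476, with the fixed run block). Its values were 1.10, −0.06, 1.03, 0.27 and 0.16 in KO ras and 0.69, 2.00, 2.25, 3.26 and 1.66 in WT ras + erlotinib. Only WT ras + erlotinib replicate 1 reached into the knockout range. The call was lost when the 2 groups were fitted alone (adjusted p = 0.113, or 0.123 with the replicate number as a block) and without KO ras replicate 2 or 4 or WT ras + erlotinib replicate 3 or 4. WT ras averaged 0.83 ± 0.61 for *Dusp4*, close to KO ras. *Dusp1*, a related phosphatase of immediate early type, passed only with the fixed run block (−1.45, adjusted p = 0.0336) and not from all samples (−0.67 ± 0.46, adjusted p = 0.428).

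*Dusp6*, the cytoplasmic ERK phosphatase, did not pass: 0.89, 0.71, 0.71, 1.43 and 0.63 in KO ras against −0.17, −0.08, −0.43, 0.72 and 0.43 in WT ras + erlotinib (0.78 ± 0.36, adjusted p = 0.201). *Myc*, a growth-promoting transcription factor outside the feedback list, read 1.83, 1.04, 1.79, 3.71 and 2.75 in KO ras. In WT ras + erlotinib *Myc* read −0.14, 0.74, −0.04, 0.48 and 2.42, and replicate 5 alone lay within the knockout range (1.53 ± 0.73, adjusted p = 0.215; 2.46, adjusted p = 0.151, with the fixed run block). The WT ras means were 0.88 for *Dusp6* and 2.31 for *Myc*, against KO ras means near those values. *Spry2*, a sprouty inhibitor of receptor signalling, differed by 0.44 ± 0.27 (adjusted p = 0.366), and *Phlda1*, induced by growth factors, by 0.38 ± 0.45 (adjusted p = 0.682).

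Over the whole lists, 1 of 20 immediate early genes and 1 of 11 ERK feedback genes (*Dusp4*) differed from all samples, beside 5.29% of all genes, and both were lower in KO ras. The medians of the 2 lists were −0.03 and −0.10, beside −0.05 over all genes. The immediate early gene that passed was *Egr3*, at −0.38, −0.71, −0.14, 1.16 and 2.00 in KO ras and 2.02, 2.53, 2.34, 1.57 and 1.37 in WT ras + erlotinib (−1.58 ± 0.44, adjusted p = 0.027). KO ras replicate 5 lay just below the 3 erlotinib samples of its run, and with the fixed run block the difference in *Egr3* was −0.42 (adjusted p = 0.661). With that block *Ccn2*, a matricellular target of YAP and TGF-beta, and *Ier3*, a survival gene, were lower in KO ras at −1.79 and −1.27. *Fosb* differed by 0.61 ± 0.29 (adjusted p = 0.213), *Fosl1* by 0.77 ± 0.74 (adjusted p = 0.599) and *Junb* by −0.01 ± 0.45 (adjusted p = 0.994), all of them partners in AP-1.

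None of 6 EGF family ligands and none of 4 ErbB receptors passed limma's test, from all samples or with the fixed run block. *Ereg*, which encodes the ligand epiregulin, had the widest spread: 0.23, 0.01, 1.72, 4.51 and 2.58 in KO ras against 3.36, 4.04, 4.38, 6.92 and 6.01 in WT ras + erlotinib. KO ras replicate 4 alone lay within the erlotinib range, and the difference was −3.13 ± 1.15 (adjusted p = 0.0985), or −1.62 (adjusted p = 0.589) with the fixed run block. The 2 groups fitted alone gave an adjusted p of 0.0302 for *Ereg*, and of 0.0196 with the replicate number as a block. *Hbegf* differed by −0.48 ± 0.56 (adjusted p = 0.673) and *Tgfa* by −0.38 ± 0.52 (adjusted p = 0.733). *Erbb2*, the ligandless partner receptor, read 1.07 to 1.40 in KO ras and −0.30 to 1.10 in WT ras + erlotinib (0.91 ± 0.36, adjusted p = 0.123). *Erbb3* differed by −0.19 ± 0.39 (adjusted p = 0.831). Among 7 genes of the ras, RAF, MEK, ERK and AKT pathway named on the array, 0 passed, and their median difference was 0.24.

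The largest differences were in genes that were higher in WT ras + erlotinib than in KO ras. Named genes were those that passed, did not overlap between the 5 and 5 samples, and kept their sign in runs 5 and 6; non-overlap held for 974 of 24913 probes measured in all 10 samples (3.91%). Signs and non-overlap chose these genes, so they support nothing further. The choice by sign in runs 5 and 6 also favours passing with the fixed run block, so those counts are no separate support. Over all genes, 374 of 14503 (2.58%) passed with that block, 130 higher and 244 lower in KO ras. The 15 largest in this direction ran from −3.03 to −5.04 on the log2 scale, 8.15-fold to 32.9-fold, and 6 of the 15 also passed with the fixed run block. The 15 largest in the other direction ran from 1.79 to 2.52, and 6 of those 15 passed with that block.

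*Cyp1b1*, a cytochrome P450 induced by the aryl hydrocarbon receptor, read 3.08, 0.04, −0.01, 1.40 and 3.02 in KO ras. In WT ras + erlotinib it read 5.36, 6.52, 6.17, 5.43 and 5.10, higher in every sample. The difference was −4.21 ± 0.78 (18.5-fold; adjusted p = 0.000986) and −3.45 (adjusted p = 0.0322) with the fixed run block. A second *Cyp1b1* probe did not share this sign and was not called. *Aldh1a3*, which makes retinoic acid from retinal, read 1.04, 0.20, −0.48, 1.34 and 0.29 in KO ras and 2.50, 4.52, 3.33, 3.99 and 5.57 in WT ras + erlotinib. Its difference was −3.50 ± 0.53 (11.3-fold; adjusted p = 4.23e-05) and −3.26 (adjusted p = 0.00666) with the block. KO ras cells given erlotinib read 3.65, 5.70, 5.23 and 2.17 for *Cyp1b1* (replicates 1 to 4), and 4.13, 3.62, 4.40 and 2.16 for *Aldh1a3*. For *Aldh1a3* all 4 lay above every KO ras sample without the drug, and for *Cyp1b1* 3 of 4 did, with replicate 4, of run 6, the lowest for both genes.

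*Anxa9*, an annexin, gave the smallest adjusted p among the named genes. It read 0.28, 0.49, 0.76, 0.24 and −0.70 in KO ras and 3.66, 3.92, 3.56, 3.13 and 3.90 in WT ras + erlotinib (−3.42 ± 0.43, 10.7-fold, adjusted p = 4.44e-06). The fixed run block gave −3.75 (adjusted p = 8.44e-05), and within run 5 and run 6 the values were −4.41 and −3.06. WT ras averaged 1.25 ± 0.72 and KO ras + erlotinib 0.99 ± 0.79, so only the wild-type cells with the drug stood above 3 for this gene. *Ndrg1*, a stress and differentiation gene repressed by MYC, was likewise highest in WT ras + erlotinib: −2.44, −1.24, −2.96, −2.84 and −1.04 in KO ras and 1.14, 0.27, 0.47, 0.19 and 0.08 in WT ras + erlotinib (−2.54 ± 0.36, adjusted p = 2.59e-05; −2.24, adjusted p = 0.00466, with the block). WT ras averaged −1.53 ± 0.38 and KO ras + erlotinib −0.95 ± 0.99 for *Ndrg1*.

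A different order held for *Wfdc2*, a secreted protein of the whey acidic protein family. It read −4.63, −5.12, −4.30, −6.31 and −4.35 in KO ras and −0.46, −1.07, −0.97, −0.47 and −1.11 in WT ras + erlotinib (−4.12 ± 0.67, adjusted p = 0.000154; −4.57, adjusted p = 0.00348, with the block). Here WT ras, at −1.63 ± 0.70, stood near the drug-treated wild type, and KO ras + erlotinib, at −4.84 ± 0.81, stood near KO ras. A second *Wfdc2* probe differed in the same direction in both fits.

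**Figure D3:**
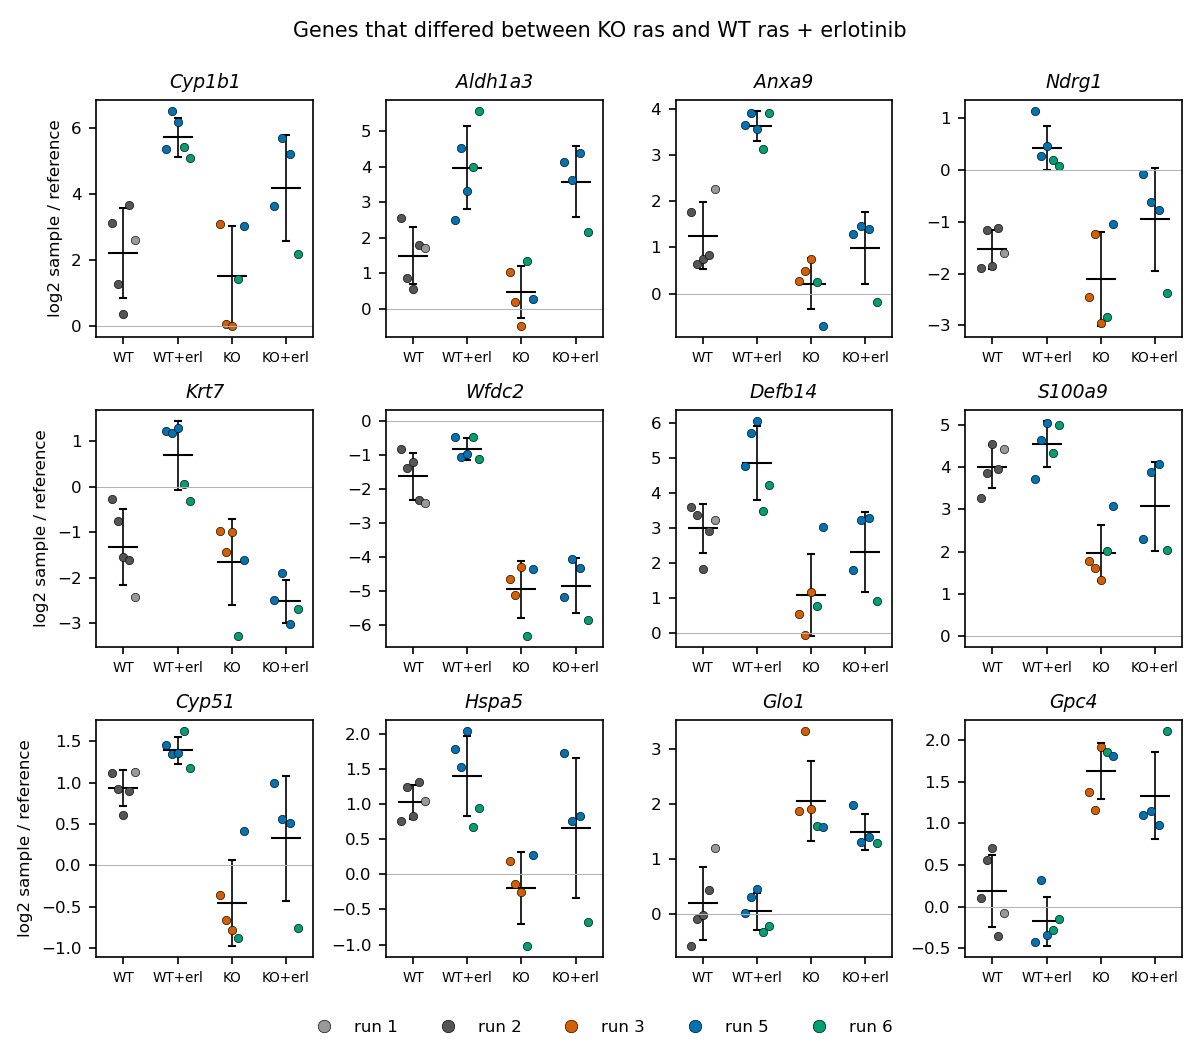
Level of 12 genes that differed between KO ras and WT ras + erlotinib (log2 sample over reference) in 4 groups of ras cells. Each point is 1 sample coloured by run, and the line and bar are the group mean and SD. *Anxa9*, *Ndrg1* and *Krt7* are highest in WT ras + erlotinib, *Wfdc2* is low in both knockout groups, at −4.30 or below in KO ras, and *Glo1* and *Gpc4* are high in both.

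Several secreted and alarmin genes were lower in KO ras. *Defb14*, an antimicrobial beta-defensin, read 0.53, −0.08, 1.15, 0.75 and 3.01 in KO ras and 4.75, 5.72, 6.05, 3.46 and 4.23 in WT ras + erlotinib (−3.77 ± 0.67, adjusted p = 0.000516; −2.76, adjusted p = 0.00433, with the fixed run block). Both subunits of calprotectin were lower too. *S100a9* read 1.78, 1.60, 1.33, 2.02 and 3.08 in KO ras and 3.73, 4.66, 5.05, 4.34 and 5.00 in WT ras + erlotinib (−2.59 ± 0.52, adjusted p = 0.00257; −2.06, adjusted p = 0.0452, with the block). *S100a8* differed by −2.71 ± 0.59 (adjusted p = 0.00499), and by −2.09 (adjusted p = 0.0736) with the block. *Slpi*, an inhibitor of leukocyte elastase, read 0.70, 1.02, 1.43, 0.55 and 0.97 against 3.70, 4.57, 3.67, 2.23 and 2.69 (−2.44 ± 0.55, adjusted p = 0.00697; −2.54, adjusted p = 0.0184, with the block).

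*S100a8*, *S100a9* and *Slpi* were the 3 called members among 9 stress keratins and alarmins, beside 3.56% of all genes lower in KO ras, while *Defb14* is no member of that list and 5 of the 9 had positive differences. The stress keratins of the same list did not pass: *Krt6a*, *Krt6b* and *Krt16* gave 1.85, 1.18 and 1.19, opposite in sign to the alarmins, so the list median of 0.22 stands for no member well. With the fixed run block 2 of the 9 passed, beside 2.58% of all genes, and the median was −1.30. With KO ras replicates 4 and 5 alone 0 of the 9 passed. The WT ras means of *S100a8* and *S100a9*, 3.41 ± 0.44 and 4.01 ± 0.51, lay nearer to the erlotinib group than to KO ras.

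Keratins of simple epithelia, which stratified epidermis normally keeps low, were lower in KO ras for 2 of 6 members, beside 3.56% of all genes. *Krt7* read −0.98, −1.43, −1.00, −3.28 and −1.61 in KO ras and 1.23, 1.18, 1.28, 0.06 and −0.31 in WT ras + erlotinib (−2.35 ± 0.46, adjusted p = 0.00178; −3.05, adjusted p = 0.00233, with the block). *Krt23* read −0.25, 0.01, −0.41, −0.07 and 1.19 against 1.31, 4.22, 2.35, 3.28 and 2.79 (−2.69 ± 0.54, adjusted p = 0.0022; −2.21, adjusted p = 0.0467). The same 2 genes passed in both fits, and *Krt7* alone with KO ras replicates 4 and 5 only. *Krt8*, *Krt18* and *Krt19* gave −1.38, −0.70 and −1.00 and did not pass, and −3.00, −2.15 and −2.18 with the block, where they did not pass either. The list median was −1.19 from all samples and −2.19 with the block.

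Cornified envelope genes, whose products are cross-linked beneath the membrane of the dying keratinocyte, gave calls from all samples that the fixed run block did not keep. *Sprr2f*, a small proline-rich protein, read −5.89, −5.68, −5.45, −3.63 and −1.85 in KO ras and −0.76, −0.04, −0.13, −0.28 and −1.39 in WT ras + erlotinib (−3.98 ± 0.70, adjusted p = 0.000496). Replicates 4 and 5, which share runs with the drug arrays, were the highest of the knockout samples, and with the fixed run block the difference was −2.33 (adjusted p = 0.146). *Sprr2g* differed by −3.03 ± 0.79 (adjusted p = 0.018), and by −2.04 (adjusted p = 0.188) with the block. These were 2 of 18 members called from all samples, beside 3.56% of all genes lower, and 0 passed with the block. The list median went from −1.09 to 0.20, where that of all genes went from −0.05 to −0.16. Genes of the *Sprr2* family are near copies of each other, so a probe may read more than 1 of them.

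Other genes of the 15 largest that lost their call with the fixed run block included *Serpinb11*, a protease inhibitor of the ovalbumin family, at −0.24, −0.27, 0.94, 3.71 and 3.07 in KO ras against 5.80, 8.24, 7.14, 5.31 and 5.93. Its difference was −5.04 ± 1.09 (32.9-fold; adjusted p = 0.00512) from all samples and −3.21 (adjusted p = 0.144) with the block. *Muc1*, a membrane mucin, differed by −3.52 ± 0.69 (adjusted p = 0.00178) and by −3.04 (adjusted p = 0.0635). *Igfbp4*, a binding protein of insulin-like growth factors, and *Dsc2*, a desmosomal cadherin, went from −3.05 and −3.14 to −1.57 and −1.59. *Cyp2e1*, a cytochrome P450, kept its call at −3.12 ± 0.71 (adjusted p = 0.00773) and −3.41 (adjusted p = 0.0406). *Cwh43*, *Stag3*, a meiotic cohesin subunit, and *Spata20* completed the 15 at −3.38, −3.28 and −3.18, and none passed with the block. With single samples left out their calls were lost in 8, 9 and 7 of 10 cases, and those of *Igfbp4* and *Dsc2* in 7. A second *Cwh43* probe did not share the sign of the probe named here and was not called.

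**Figure D4:**
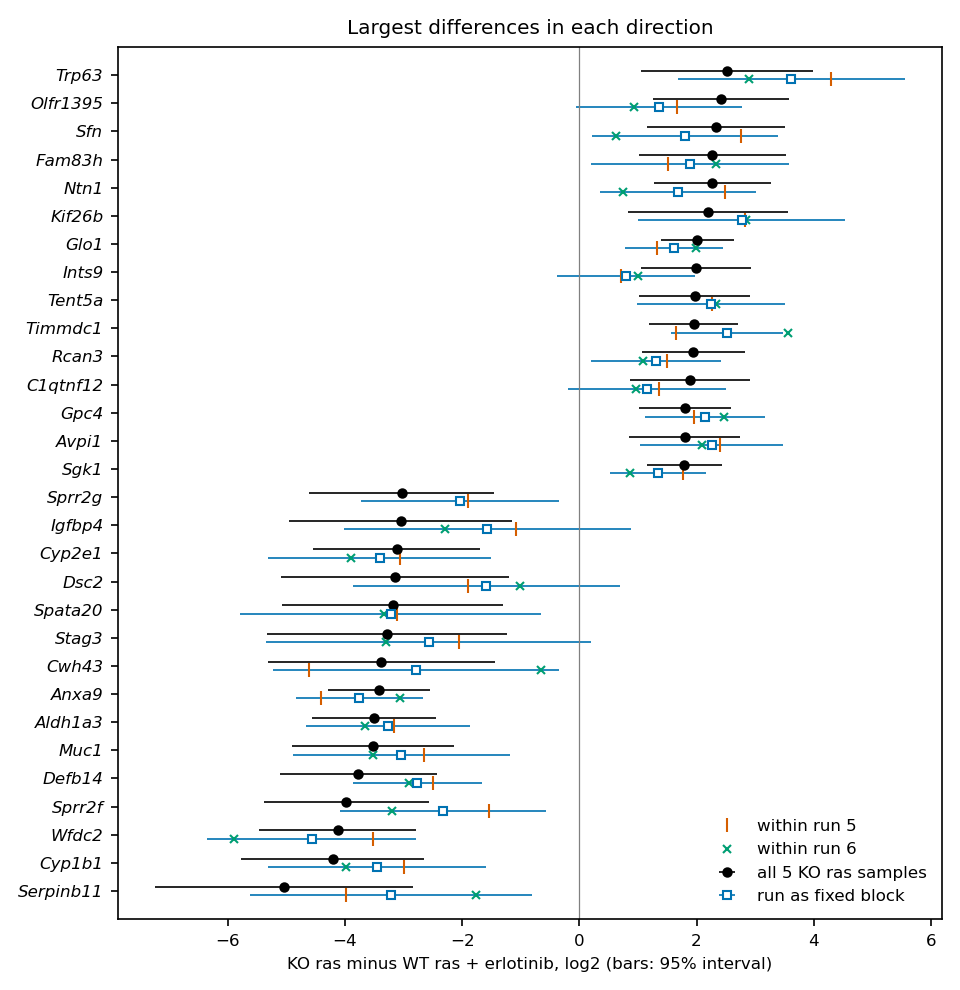
The 15 largest differences in each direction (KO ras minus WT ras + erlotinib, log2), by gene. Black circles with 95% intervals come from all samples, blue squares with 95% intervals from the fit with run as a fixed block, and orange ticks and green crosses from run 5 and run 6 alone. *Serpinb11* lies at −5.04 and *Trp63* at 2.52, and several block intervals, such as that of *Ints9*, include 0.

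Lipid synthesis was the list with the most calls. Of 20 tested genes of cholesterol and fatty acid synthesis, 7 were lower in KO ras and 0 higher, beside 3.56% of all genes lower. In all, 17 of the 20 had negative differences, beside 7695 of 14503 genes, and the median was −0.78, beside −0.05. With the fixed run block the median was −0.80, 17 were again negative and 3 passed, beside 2.58% of all genes. KO ras replicates 4 and 5 alone left 1 call, as did the fit of the 2 groups alone, with or without the replicate number as a block, and leaving out single samples gave 2 to 7. Without WT ras + erlotinib replicate 3 the count was 2.

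*Cyp51*, the lanosterol demethylase of cholesterol synthesis, read −0.36, −0.66, −0.78, −0.88 and 0.41 in KO ras and 1.45, 1.35, 1.36, 1.62 and 1.17 in WT ras + erlotinib. Every drug-treated sample lay above every knockout sample (−1.84 ± 0.28, 3.59-fold, adjusted p = 4.19e-05; −1.58, adjusted p = 0.00663, with the block). *Idi1*, which isomerizes isopentenyl diphosphate, read 0.70, −0.41, −0.83, −0.02 and 1.72 against 2.52, 3.14, 3.10, 1.94 and 1.57 (−2.22 ± 0.48, adjusted p = 0.00455; −1.57, adjusted p = 0.0735). KO ras replicate 5 reached into the erlotinib range for *Idi1*. *Scd2*, a stearoyl-CoA desaturase, differed by −1.59 ± 0.48 (adjusted p = 0.0411) and by −2.07 (adjusted p = 0.0288) with the block, and its relative *Scd1* passed with the block only (−2.10). The near copies *Scd1*, *Scd2* and *Scd3* may share a probe's signal. *Acly*, which supplies acetyl-CoA, differed by −1.11 ± 0.26 (adjusted p = 0.0086), *Insig1*, the sterol-sensing retention protein, by −1.37 ± 0.42 (adjusted p = 0.0467), *Msmo1*, a sterol oxidase, by −1.35 ± 0.42 (adjusted p = 0.0466) and *Lss*, lanosterol synthase, by −1.03 ± 0.30 (adjusted p = 0.0328). None of these 4 passed with the block, and with single samples left out their calls were lost in 1, 8, 8 and 6 of 10 cases, and that of *Scd2* in 7. WT ras means were 0.94 ± 0.21 for *Cyp51* and 1.24 ± 0.76 for *Idi1*, between the groups. KO ras + erlotinib read 0.99, 0.56, 0.51 and −0.76 for *Cyp51* (replicates 1 to 4), below every WT ras + erlotinib sample. For *Idi1* it read 2.51, 2.16, 2.64 and −0.14, with replicates 1 to 3 within the WT ras + erlotinib range.

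**Figure D5:**
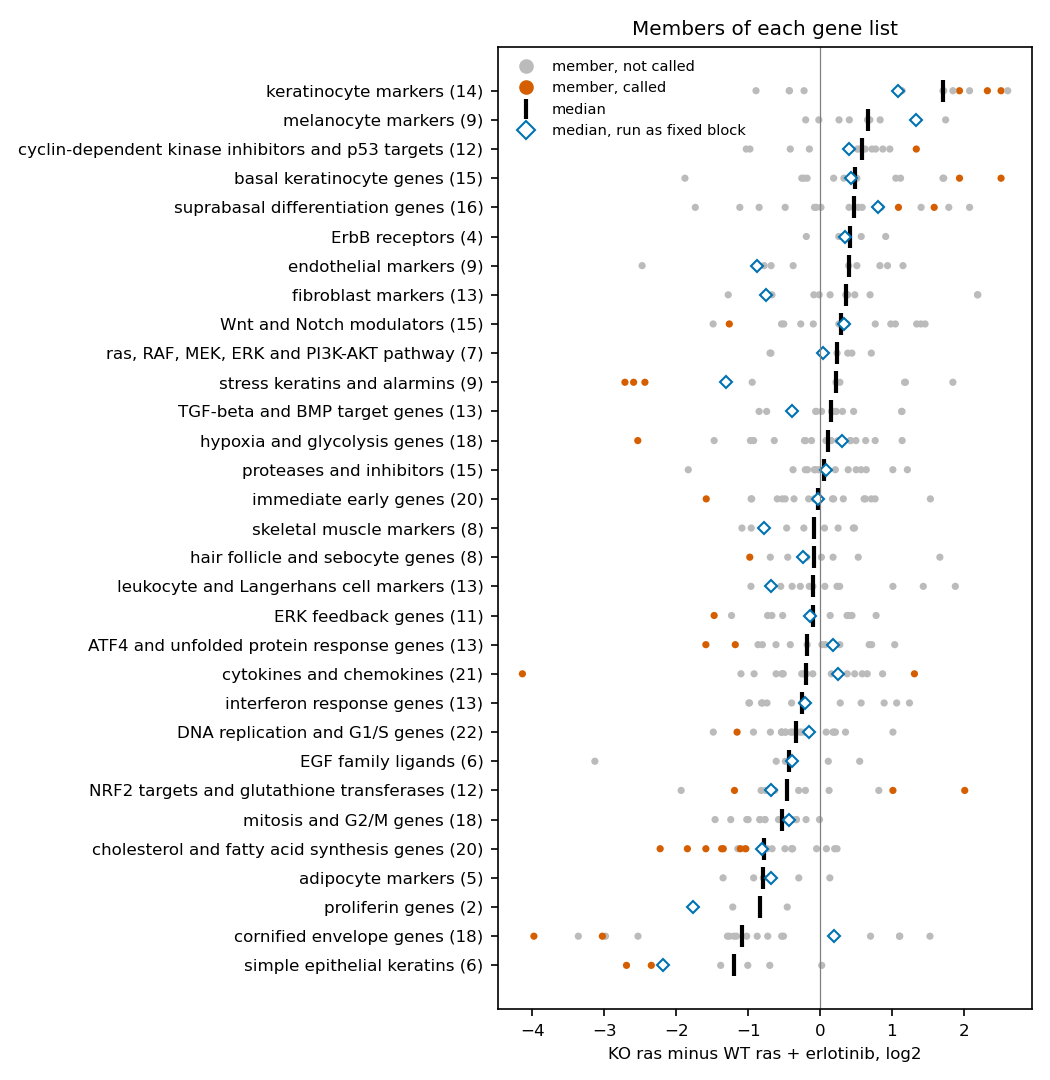
Differences (KO ras minus WT ras + erlotinib, log2) of the tested members of 31 gene lists, with the number tested in brackets. Orange points passed limma's test and grey points did not, black ticks are list medians from all samples and blue diamonds list medians with run as a fixed block. Lipid synthesis holds 7 orange points, all below 0, while ticks and diamonds lie far apart for the cornified envelope, fibroblast and endothelial lists.

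Both abundant chaperones of the endoplasmic reticulum were lower in KO ras. BiP, encoded by *Hspa5*, and GRP94, encoded by *Hsp90b1*, fold secreted and membrane proteins and are textbook targets of the ER stress response element, which ATF6 and NF-Y read. For both genes the presence of that element was thus known in advance, and its part in the differences was not tested. The promoter windows are shown to illustrate the element. They come from RefSeq (mouse build GRCm38.p6), run 5′ to 3′ on the gene's strand, and start 150 and 220 bases before the gene's start for *Hspa5* and *Hsp90b1*. Capitals mark matches to CCAAT, any 9 bases and CCACG, on either strand, and the intervals are chr2:34771940-34772059 on the plus strand and chr10:86705475-86705664 on the minus strand.
Hspa5: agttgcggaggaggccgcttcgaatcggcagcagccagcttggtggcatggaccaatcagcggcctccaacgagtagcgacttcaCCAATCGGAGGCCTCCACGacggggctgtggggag
Hsp90b1: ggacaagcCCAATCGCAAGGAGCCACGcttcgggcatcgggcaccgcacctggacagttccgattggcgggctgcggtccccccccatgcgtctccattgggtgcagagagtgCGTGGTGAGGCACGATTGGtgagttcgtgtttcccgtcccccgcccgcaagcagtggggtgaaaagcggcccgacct

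The motif stood in 39 of 32851 RefSeq windows of 300 bases (0.119%). Among 16 windows of the ATF4 and unfolded protein response list (14 genes) it stood in the 2 shown. The *Hspa5* window held 1 match, 65 to 47 bases before the start, and the *Hsp90b1* window held 2, at 212 to 194 and, on the opposite strand, at 107 to 89 bases before it. A match of letters is a description and shows no binding.

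*Hspa5* read 0.18, −0.14, −0.26, −1.02 and 0.27 in KO ras and 1.79, 1.52, 2.04, 0.68 and 0.95 in WT ras + erlotinib (−1.59 ± 0.37, adjusted p = 0.00909; −1.74, adjusted p = 0.00661, with the block). *Hsp90b1* read −0.20, −0.07, −0.01, −1.14 and −0.07 against 0.98, 0.97, 1.01, 0.90 and 0.54 (−1.18 ± 0.34, adjusted p = 0.0329; −1.45, adjusted p = 0.0204). Neither gene's groups overlapped. WT ras averaged 1.04 ± 0.24 and 0.91 ± 0.20, near the drug-treated wild type. KO ras + erlotinib read 1.73, 0.77, 0.83 and −0.68 for *Hspa5* (replicates 1 to 4), and 0.77, 0.55, 0.57 and −1.14 for *Hsp90b1*. Replicates 1 to 3, of run 5, lay within the WT ras + erlotinib range for both genes, and replicate 4, of run 6, lay below it. With the 2 groups fitted alone the adjusted p-values were 0.031 and 0.0719, and with the replicate number as a block as well 0.0533 and 0.0954. They were the 2 called of 13 genes in the list, beside 3.56% of all genes lower, and the list's median was −0.18 from all samples and 0.18 with the fixed run block. *Atf4*, *Ddit3* and *Trib3*, of the integrated stress response, gave 0.28, −0.18 and 0.72 and did not pass.

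Genes that were higher in KO ras showed smaller differences. *Glo1*, the glyoxalase that clears methylglyoxal, read 1.88, 3.34, 1.91, 1.60 and 1.58 in KO ras and 0.02, 0.31, 0.45, −0.33 and −0.21 in WT ras + erlotinib (2.01 ± 0.31, 4.04-fold, adjusted p = 5.62e-05; 1.62, adjusted p = 0.0245, with the block). WT ras averaged 0.20 ± 0.67 and KO ras + erlotinib 1.50 ± 0.33, so *Glo1* was high in both knockout groups. *Gpc4*, a cell-surface heparan sulfate proteoglycan, had the same order: 1.38, 1.16, 1.92, 1.86 and 1.81 against −0.43, 0.32, −0.35, −0.29 and −0.15 (1.80 ± 0.39, adjusted p = 0.00542; 2.15, adjusted p = 0.0137), with 0.19 ± 0.44 in WT ras and 1.34 ± 0.52 in KO ras + erlotinib. A second *Gpc4* probe passed in both fits. *Timmdc1*, a mitochondrial complex I assembly factor, read 1.24, 1.71, 1.65, 3.42 and 1.60 against 0.10, −0.03, −0.23, −0.35 and 0.37 (1.95 ± 0.38, adjusted p = 0.00172; 2.53, adjusted p = 0.00233).

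*Trp63*, the master transcription factor of stratified epithelium, had the largest difference in this direction. Its values were 5.38, 5.61, 3.80, 5.73 and 7.28 in KO ras and 2.26, 3.35, 3.33, 2.78 and 3.49 in WT ras + erlotinib (2.52 ± 0.73, 5.73-fold, adjusted p = 0.0356; 3.62, adjusted p = 0.0307, with the block). WT ras averaged 3.76 ± 0.96 and KO ras + erlotinib 6.24 ± 0.83. The random run block gave an adjusted p of 0.0512, and the call was lost without KO ras replicate 1, 2, 4 or 5 or without WT ras + erlotinib replicate 1, 3 or 4. *Tent5a*, a poly(A) polymerase, and *Avpi1* passed in both fits at 1.97 and 1.80. *Sgk1*, a serum- and glucocorticoid-induced kinase, read 2.51, 2.52, 2.67, 1.59 and 2.05 against 0.35, 0.00, 0.48, 0.72 and 0.81 (1.79 ± 0.32, adjusted p = 0.000553), and 1.34 (adjusted p = 0.0651) with the block.

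The remaining genes of the 15 did not pass with the fixed run block. *Sfn*, the 14-3-3 sigma protein of epithelia, read 5.60, 5.64, 5.13, 3.71 and 5.19 against 2.75, 1.72, 2.80, 2.90 and 3.46 (2.33 ± 0.59, adjusted p = 0.0145; 1.80, adjusted p = 0.214). *Ntn1*, the secreted guidance protein netrin-1, differed by 2.27 ± 0.50 (adjusted p = 0.00555) and by 1.68 (adjusted p = 0.17). *Ints9*, a subunit of the Integrator complex, went from 2.00 to 0.80, since KO ras replicates 4 and 5 read −0.77 and −0.84 while replicates 1 to 3 read 0.86 to 1.61. *Olfr1395*, annotated as an olfactory receptor, *Fam83h*, *Kif26b*, *Rcan3* and *C1qtnf12* differed by 2.42, 2.27, 2.20, 1.95 and 1.89. The call of *Kif26b* was lost whichever of the 10 samples was left out, that of *Fam83h* in 6 of 10 cases and that of *C1qtnf12* in 4, while *Olfr1395* and *Rcan3* kept theirs.

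The basal and suprabasal genes that passed from all samples were higher in KO ras, and with the fixed run block 1 was lower. Of 15 basal keratinocyte genes, 11 had positive differences, 2 were higher (*Trp63* and *Itgb4*) and 0 lower, beside 1.72% of all genes higher, with a median of 0.49, or 0.44 with the block. *Itgb4*, the hemidesmosomal integrin subunit, read 5.18, 5.19, 5.26, 4.47 and 4.17 against 1.71, 4.25, 2.34, 2.92 and 3.35 (1.94 ± 0.51, adjusted p = 0.0204; 1.50, adjusted p = 0.246, with the block). The keratins *Krt5* and *Krt14* gave 1.72 ± 0.84 (adjusted p = 0.235) and −0.22 ± 0.69 (adjusted p = 0.895). Of 16 suprabasal genes, 2 were higher from all samples: *Krt10*, the keratin of the spinous layer, at 3.25, 2.62, 2.69, 2.08 and 1.69 against 1.06, 1.17, 0.39, 0.86 and 0.92 (1.59 ± 0.47, adjusted p = 0.0377), and *Notch1*, the receptor that drives spinous commitment, at 1.09 ± 0.33 (adjusted p = 0.0439). Each lost its call with most single samples left out, in 7 of 10 cases for *Krt10* and 8 for *Notch1*. With the block they gave 0.99 (adjusted p = 0.402) and 1.03 (adjusted p = 0.215). *Krt1*, the partner of *Krt10*, differed by 0.85 ± 0.70 (adjusted p = 0.524).

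With the block the suprabasal genes that passed were others, 1 higher and 1 lower, where 2.58% of all genes passed. *Tgm3*, a transglutaminase that cross-links envelope proteins, was higher at 4.15 (adjusted p = 0.000156), against 1.41 (adjusted p = 0.219) from all samples. *Id2*, an inhibitor of basic helix-loop-helix factors placed in this list and among the TGF-beta and BMP targets, was lower (−1.73, adjusted p = 0.00727). Its values were 0.41, 0.67, 0.68, −1.67 and −0.15 in KO ras and 0.71, 0.74, 1.21, 0.78 and 0.73 in WT ras + erlotinib, without overlap, and all samples gave −0.85 ± 0.34 (adjusted p = 0.13). WT ras averaged −1.47 ± 0.55, below both. *Sostdc1*, an inhibitor of BMP and Wnt signals, differed by 1.46 ± 0.66 (adjusted p = 0.191). *Tcf7l1*, a repressor of Wnt targets, was lower in KO ras (−1.26 ± 0.29, adjusted p = 0.00799; −1.01, adjusted p = 0.148, with the block).

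No list of the cell cycle stood out by its calls. All 18 tested mitosis genes had negative differences, with a median of −0.53 beside −0.05 over all genes, yet 0 passed in limma. With the block 16 of 18 were negative and the median was −0.43, beside −0.16 over all genes. Of 22 DNA replication genes, 1 was lower, *Pold1*, the catalytic subunit of DNA polymerase delta (−1.15 ± 0.30, adjusted p = 0.0174; −0.65, adjusted p = 0.356, with the block). *Ccnd1*, cyclin D1, and *Mcm4*, a helicase subunit, differed by −0.21 ± 0.46 (adjusted p = 0.841) and −0.48 ± 0.52 (adjusted p = 0.653). *Cdkn1a*, the inhibitor p21, differed by 0.77 ± 0.48 (adjusted p = 0.368). *Trp53inp1*, a p53 target, was higher in KO ras (1.34 ± 0.38, adjusted p = 0.0293), but KO ras replicate 5 read 0.29, and the block gave 0.81 (adjusted p = 0.378).

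Of 21 cytokines and chemokines, 1 was lower and 1 higher, beside 3.56% and 1.72% of all genes, and 0 passed with the fixed run block. *Cxcl5*, a neutrophil chemoattractant, read 2.23, 0.12, 0.28, −0.57 and 4.21 in KO ras and 3.37, 6.41, 5.47, 5.89 and 5.83 in WT ras + erlotinib (−4.14 ± 1.13, adjusted p = 0.0247; −3.44, adjusted p = 0.202, with the block). It was −0.88 within run 5 and −6.72 within run 6. *Vegfa*, the angiogenic growth factor, was higher in KO ras at 1.31 ± 0.40 (adjusted p = 0.0461), but within run 6 the difference was −0.01. Of 12 NRF2 targets and glutathione transferases, 1 was lower and 2 higher from all samples, beside 3.56% and 1.72% of all genes. With the block 3 were lower and 1 higher, beside 244 and 130 of 14503 genes. *Gsto1* was lower in both fits (−1.19 ± 0.32, adjusted p = 0.0204; −1.62, adjusted p = 0.00663), *Glo1* was higher in both, and *Gclc*, which limits glutathione synthesis, was higher from all samples only (1.01 ± 0.30, adjusted p = 0.0405). The proliferins *Prl2c2* and *Prl2c5*, placental prolactin relatives that are near copies of each other, differed by −1.21 ± 0.94 (adjusted p = 0.497) and −0.46 ± 0.73 (adjusted p = 0.774).

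The remaining lists held 0 or 1 call from all samples. Of 18 hypoxia and glycolysis genes only *Ndrg1* passed, of 15 Wnt and Notch genes only *Tcf7l1*, and of 8 hair follicle and sebocyte genes only *Scd3*, with list medians of 0.11, 0.30 and −0.08. None of 13 TGF-beta and BMP targets, 15 proteases and inhibitors, 13 interferon response genes, 8 skeletal muscle markers or 5 adipocyte markers passed limma's test from all samples, with medians of 0.16, 0.05, −0.25, −0.08 and −0.79. With the fixed run block *Ccn2* and *Id2* of the TGF-beta and BMP targets and *Fabp4*, an adipocyte fatty acid-binding protein (−3.19, adjusted p = 0.0221), were lower in KO ras, and *Dll1*, a Notch ligand, was higher (2.20, adjusted p = 0.0467). Over all genes 2.58% passed with that block.

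Marker lists of other cell types gave medians that changed sign between the fits for fibroblasts and endothelium. In these bulk samples fewer cells of a type and less RNA per cell cannot be told apart. The median level of 13 fibroblast markers ran from −1.93 to −0.25 in KO ras and −1.89 to −1.22 in WT ras + erlotinib, and 0 of the 13 passed. Their median difference was 0.36 from all samples and −0.75 with the fixed run block. The 9 endothelial markers gave 0.40 and −0.87, with levels of −3.37 to −0.71 in KO ras and −2.14 to −0.63 in WT ras + erlotinib, and 0 passed. For 13 leukocyte and Langerhans cell markers the levels were −2.24 to −0.61 and −1.69 to −0.76, and 0 passed in limma. The 9 melanocyte markers were the only one of these lists above the reference in both groups, at 1.22 to 1.97 and 0.08 to 1.53, and *Tyr*, tyrosinase, passed with the block (2.92). For 14 keratinocyte markers the levels were 4.01 to 5.21 in KO ras and 2.07 to 3.80 in WT ras + erlotinib, without overlap. This was not particular to them. The levels of the lipid synthesis list (0 to 0.62 against 0.75 to 1.30) and the mitosis list (−0.47 to 0.13 against 0.26 to 1.13) did not overlap either, both lower in KO ras. Of the 14 keratinocyte markers 3 were higher in KO ras (*Trp63*, *Sfn* and *Itgb4*), beside 1.72% of all genes. Only *Trp63* passed with the fixed run block, and 0 of the 14 with the random block. The part of these markers in the differences above was not tested.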

How the data were processed

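The authors deposited log2 ratios of 2 dyes per probe for 63 arrays (the base is assumed). Their background correction, normalization and probe build are not given in the sources used here. Per the labels' protocols, Trizol RNA carried Cy3 and the universal mouse reference Cy5, with the dyes exchanged on 12 arrays, which were turned to sample over reference by label. Of 28049 probes, 20925 matched 1 symbol in the platform annotation (14541 genes), 159 several and 6965 none. Arrays held 24860 to 28047 values, and their number limits the precision.

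The model was limma's (3.58.1; run in R 4.3.3 with statmod 1.5.0, tables and figures in Python 3.11.15 with pandas 2.3.3 and matplotlib 3.10.9), over 60 samples of 13 groups with a dye term and Benjamini-Hochberg adjustment, at a threshold of 0.05, for probes with values on 60 percent of the arrays of each group compared. The 2 KO ras + AG1478 arrays whose direction went against their labels were left out, and both arrays labelled WT mock repeat 1 were averaged. Runs part experiment numbers at gaps over 100. The random run block used a correlation of 0.246.

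A gene was represented by its probe with most values. Named genes were the 15 largest called differences each way without overlap and of one sign in runs 5 and 6 (clone and locus codes skipped), called members of 31 lists, and 33 genes set by name, of which *Spry4* and *Areg* had no tested probe. Members and lists were chosen with earlier results of these data known. Lists are described by counts and medians, with no set test.

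Deviations of same-numbered samples of the groups correlated at 0.219, 0.126, 0.239, 0.465 and 0.200 for numbers 1 to 5. No such values are given for different-numbered samples, so a link by replicate number is not shown. The pair at 0.465 also shares its run and its reversed dyes. The replicate number was still fitted as a block, on these groups alone. The series' design speaks of biological replicates, but nothing says that samples came from separate cultures, so the spread behind each p-value may be technical. In simulated data 100 of 27947 probes were changed by each size. This comparison recovered 8 percent of log2 changes of 1 and 73 percent of changes of 2, with 5.81 percent false calls. The simulated noise was independent between samples and held no run effect, so these shares need not hold for the real arrays. Array weights were an alternative chosen after seeing the data.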

Additional observations from a re-analysis of the deposited data

Results flagged for a closer look

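Single samples that stood far from the other 4 of their group were looked for in 174 groups of named genes (87 genes, both groups), and 13 were found. Chance gives about 1 in 20. Of these, 6 belonged to KO ras replicate 4: *Sfn* at 3.71 (others 5.13 to 5.64), *Timmdc1* at 3.42 (1.24 to 1.71), *Krt7* at −3.28 (−1.61 to −0.98), *Hsp90b1* at −1.14 (−0.20 to −0.01), *Fos* at −1.15 (0.11 to 0.36) and *Prl2c5* at 3.90 (6.62 to 7.43). That array has reversed dyes, is the only KO ras sample of run 6 and has the largest SD of both groups (1.75). The part of these traits was not tested. KO ras replicate 5 stood apart for *Trp53inp1*, at 0.29 (1.42 to 1.81), and *Krt23*, at 1.19 (−0.41 to 0.01), and KO ras replicate 2 for *Glo1*, at 3.34 (1.58 to 1.91). In WT ras + erlotinib, replicate 4 stood apart for *Notch1*, at 2.04 (1.44 to 1.59), and *Tcf7l1*, at −0.23 (0.45 to 0.70), replicate 5 for *Hsp90b1*, at 0.54 (0.90 to 1.01), and replicate 3 for *Id2*, at 1.21 (0.71 to 0.78). The calls of *Hsp90b1* and *Notch1* were lost in 6 and 8 of the 10 cases with 1 sample left out, KO ras replicate 4 among them, and *Krt7*, *Sfn*, *Timmdc1* and *Glo1* kept theirs with any 1 sample left out.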

How the results depend on the processing

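From all samples 1364 probes passed. Other settings gave 788 (the 2 disputed arrays kept by label), 244 (only the groups compared), 254 (the same with the replicate block), 839 (probes averaged by gene), 671 and 375 (run as fixed and random block), 175 and 147 (within runs 5 and 6), 3232 (KO ras replicates 1 to 3 only), 262 (KO ras replicates 4 and 5 only) and 4576 (array weights). Leaving out single samples gave 549 to 2219. Averaging leaves fewer features to test, and the within-run and part-group settings use fewer samples. For the rest, array weights among them, the cause was not tested. That setting weighted KO ras replicates 1 to 3, of run 3, at 1.02 to 1.65. KO ras replicates 4 and 5, which share runs with erlotinib, had weights of 0.308 and 0.352, so it leans on run 3. The settings not listed here stayed within 1.5 times. The 58 called named genes kept their direction in 1676 of 1677 values. They were chosen for their calls, many also for non-overlap and sign, and most settings reuse the same samples. This count was thus largely fixed in advance and is no separate support. *Vegfa* reversed within run 6, to −0.0108. No called gene kept its call under every setting, 28 did with each sample left out, and 23, 28 and 31 did with the fixed, random and replicate block. Of the 58 calls, 24, 27, 21, 12 and 3 were lost without KO ras replicates 1 to 5, and 19, 14, 24, 16 and 12 without WT ras + erlotinib replicates 1 to 5. Signal over background is not given.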
